A study of Mus musculus with 12 samples.

Results

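The axon injury and regeneration genes described here are 36 mouse genes that sensory neurons are known to switch on after a peripheral nerve is cut or crushed. They were taken as a named list and matched to the gene identifiers of the count tables by symbol, and 36 of 36 matched, out of 55416 identifiers in all. Their expression was compared in adult dorsal root ganglia (DRG) of 6 Prdm12 inducible knockout (iKO) libraries and 6 control libraries, collected 1 month after injection. Prdm12 encodes a PR-domain zinc finger regulator of transcription that nociceptors need in order to form. The series set out to find the genes that Prdm12 regulates in the adult ganglion, and its animals were not described as nerve-injured.

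All animals were C57Bl6 adults. The 6 iKO libraries had the genotype Rosa26Cre ERT2; Fl/Fl and had been given tamoxifen. Controls 1 to 4 had been given tamoxifen as well. Of these, control 1 was heterozygous for the floxed allele with Cre, controls 2 and 3 were heterozygous without Cre, and control 4 had Cre and wild-type Prdm12. Controls 5 and 6 had the same Rosa26Cre ERT2; Fl/Fl genotype as the iKO but had been given corn oil. The Rosa26 locus is active in nearly all cell types, so Cre was not restricted to neurons, and each library holds RNA of the whole ganglion. Whether each library came from 1 animal or from a pool is not stated, so the p-values below measure the spread between these libraries. Libraries iKO 1 to 3 and controls 1 and 2 were from females and the other 7 from males.

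After axotomy the injured sensory neuron starts a regeneration programme. Dual leucine zipper kinase and JNK carry the damage signal along the axon, and the transcription factors Jun, Atf3, Sox11, Stat3 and Smad1 then turn on neuropeptides, growth-cone proteins, cytokines and stress proteins, while many ion channel and transmitter genes are turned down. Atf3 and Sprr1a are the genes most often used to mark an injured neuron, because intact neurons hold little of either.

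Total counts ran between 16128401 and 20377766 per iKO library and between 13943784 and 16991061 per control library. Prdm12 itself averaged 23.3 ± 2.51 CPM (counts scaled to library size) in iKO and 117 ± 29.4 CPM in controls (SD, n = 6 each), a log2 fold change of -2.33 ± 0.18 (SE). The highest iKO library, at 25.4 CPM, lay below the lowest control, at 64.6 CPM (exact 2-sided permutation p = 0.00216, the smallest that 6 against 6 libraries allow). The 8 sensory neuron markers were detected in all 12 libraries. Library iKO 1 stood apart from the others: its summed macrophage marker level was 423 CPM, against at most 170 CPM in the other iKO libraries and 151 to 233 CPM in controls, and its fibroblast and endothelial markers were also the highest. Its summed sensory neuron marker level was the lowest of the 12, at 5424 CPM, against 6569 to 6981 CPM in the other iKO libraries and 5941 to 6870 CPM in controls. Of 70 tested marker genes of 10 cell types, edgeR called 0 between iKO and control (5 at an unadjusted p under 0.05), limma-voom 0 and DESeq2 2. Without iKO 1, edgeR called 4 of them, Cd79b, Dcn, Kdr and Shh, while calls over all genes went from 155 to 364. Over all 12 libraries, their log2 fold changes were -0.56, -0.20, -0.15 and 0.38 in that order. In each of the other iKO libraries, the summed endothelial, mural and lymphocyte marker levels lay below every control. They were at most 109, 352 and 5.93 CPM, against at least 120, 363 and 6.20 CPM in controls. Most of the mural sum was Rgs5, at 260 ± 11.8 CPM over all iKO libraries and 309 ± 30.8 CPM in controls. Over all 12 libraries, 4 of the 6 mural estimates were positive. The mean centred log2 CPM of the mural markers overlapped, reaching -0.03 without iKO 1, against -0.16 to 0.20 in controls. This split was looked at after iKO 1 stood apart, and its share over all genes was not counted. The summed levels of the other cell types overlapped between those iKO libraries and controls.

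Most of the injury genes did not differ detectably between iKO and control ganglia, and the change was carried by a few of them. Of the 36 genes, 31 passed the filter on low counts and were tested, while Npy, Vip, Il6, Cckbr and Sprr1a were too low. A total of 5 genes rose and 0 fell at an adjusted p under 0.05 in edgeR's quasi-likelihood test, Benjamini-Hochberg adjusted over all 16384 genes tested. The genes that rose were Arid5a, Gpr151, Tes, Jun and Fst, by 1.36-fold to 1.93-fold. Over all genes tested, 0.537% were called higher and 0.409% lower in iKO, a background of 88 and 67 genes. The median log2 fold change of the 31 genes was 0.08, beside a median near 0 over all genes tested, and 21 of the 31 estimates were positive. In whole-ganglion RNA, a change in the number of cells of a type and a change in the RNA per cell cannot be told apart.

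**Figure D1:**
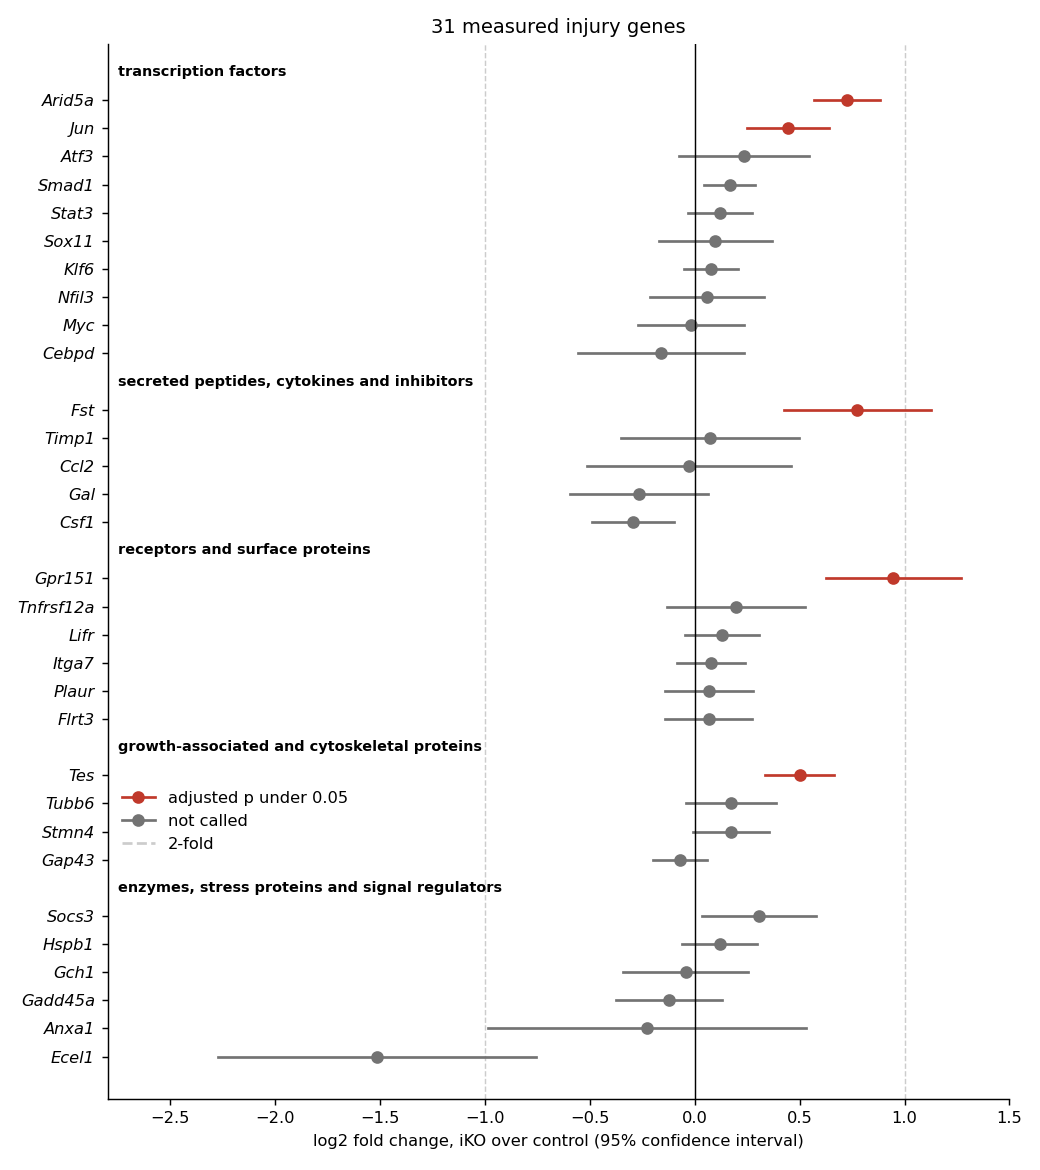
Log2 fold change, iKO over control, of the 31 tested injury genes, grouped by role. Points are edgeR estimates over 6 iKO and 6 control libraries and bars are 95% confidence intervals. The 5 genes with an adjusted p under 0.05 are red and all lie right of 0, while Atf3, Sox11, Gal and Gap43 have intervals that cross 0.

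At an unadjusted p under 0.05, 7 of the 31 genes were higher and 2 lower, beside 5.33% of all genes tested higher and 4.18% lower. The genes below the unadjusted threshold but not called were Smad1 and Socs3, with higher values in iKO, and Csf1 and Ecel1, with lower values. In 5 of the 31 genes every iKO library lay above every control, and in 0 every iKO library lay below every control, beside 0.879% and 0.665% of all genes tested. Those 5 were Arid5a, Gpr151, Tes, Fst and Smad1. The 95% confidence interval of the fold change lay within 2-fold in either direction for 28 of the 31 genes, so changes beyond that size fell outside the interval in those genes. The exceptions were Gpr151, Fst and Ecel1.

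Among the 10 transcription factors and RNA-binding regulators, Arid5a and Jun rose, while Atf3, Sox11, Stat3 and Smad1 were not called. Arid5a, an ARID-domain protein that in immune cells binds and stabilises Il6 and Stat3 messenger RNA, had a lowest, median and highest level of 22.7, 23.9 and 27.3 CPM in iKO libraries, against 13.0, 14.5 and 16.3 CPM in controls. The groups did not overlap. The log2 fold change was 0.72 ± 0.07 (SE, edgeR's quasi-likelihood test, adjusted p = 0.000148), a fold of 1.65, and it was the gene with rank 9 by p among all 16384 genes tested.

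Jun, the AP-1 subunit that JNK phosphorylates in injured neurons and that drives regeneration, had 62.9, 76.5 and 86.2 CPM as lowest, median and highest in iKO libraries and 47.6, 56.1 and 66.6 CPM in controls. All 6 iKO libraries lay above the control median, but the lowest iKO library, iKO 4, lay below the highest control, control 2. The log2 fold change was 0.44 ± 0.09 (SE, edgeR's quasi-likelihood test, adjusted p = 0.0301). In 6 of the 12 fits that each left out 1 library the Jun call was lost, those without iKO 2, 5 or 6 or control 1, 3 or 6, with log2 fold changes of 0.38 to 0.52 over the 12. The libraries were not stranded, and 7.28% of the exon bases of Jun are shared with the antisense gene Junos, whose own count was 452 in all libraries together beside 13190 for Jun.

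Atf3, the stress-induced factor that nearly every axotomised sensory neuron turns on, had a lowest, median and highest of 7.34, 8.15 and 9.97 CPM in iKO libraries and 4.40, 7.29 and 9.24 CPM in controls. The ranges overlapped, and all 6 iKO libraries lay above the control median. Its log2 fold change of 0.24 ± 0.15 was not called (edgeR, adjusted p = 0.635), and its 95% interval ran from 0.949-fold to 1.46-fold.

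Sox11, which promotes axon growth, had 11.4, 13.4 and 16.8 CPM as lowest, median and highest in iKO libraries and 9.13, 13.2 and 16.2 CPM in controls, with a log2 fold change of 0.10 ± 0.13. Smad1, which carries the BMP signal for axon growth, had 39.64, 41.4 and 42.8 CPM in iKO libraries and 32.6, 36.9 and 39.63 CPM in controls. The groups of Smad1 did not overlap, by a narrow gap, and the difference was small, with a log2 fold change of 0.17 ± 0.06 that was not called after adjustment (edgeR, unadjusted p = 0.0103, adjusted p = 0.299).

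The other 5 regulators had log2 fold changes between -0.16 and 0.12, none called. They were Stat3, which relays gp130 cytokine signals, Klf6, a growth-promoting Krüppel-like factor, the proto-oncogene Myc, and the bZIP factors Nfil3 and Cebpd. Stat3 averaged 401 ± 39.7 CPM in iKO and 370 ± 15.8 CPM in controls, with a log2 fold change of 0.12 ± 0.07. Cebpd ran between 6.67 and 17.2 CPM in iKO libraries and between 8.202 and 16.8 CPM in controls. Control 2 lay far above the other controls, while iKO 1 and iKO 2, at 17.2 and 11.8 CPM, lay above the other iKO libraries. Of the exon bases of Cebpd, 15.0% are shared with Spidr on the other strand.

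**Figure D2:**
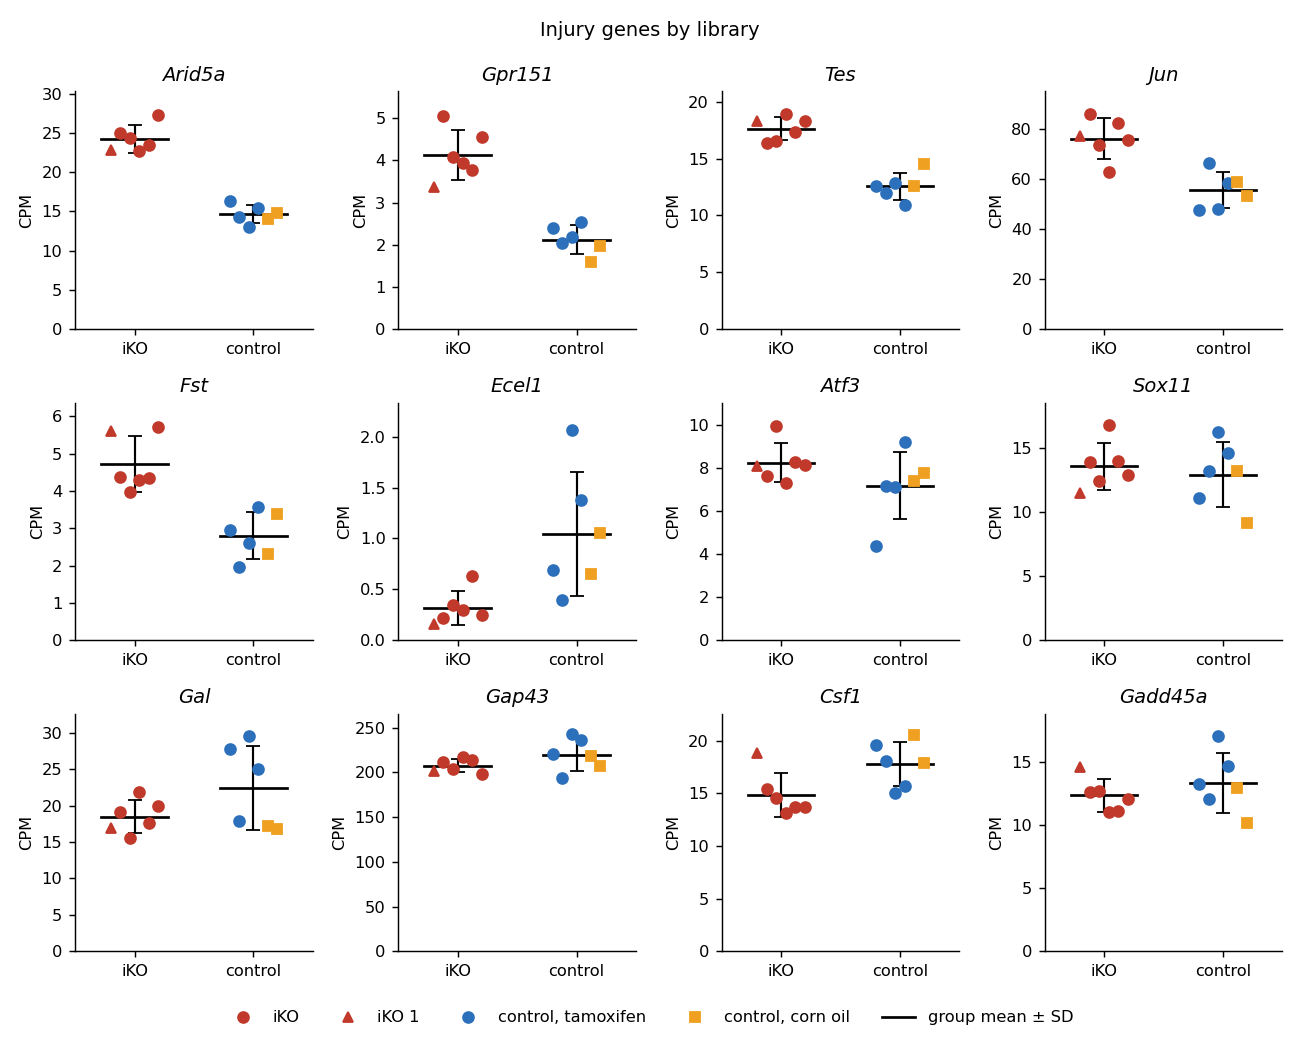
CPM of 12 injury genes in each library, iKO left and control right, each panel on its own linear scale from 0. Points are libraries, with iKO 1 as a triangle and corn-oil controls as squares, and bars are the mean ± SD of 6 libraries. Arid5a, Gpr151, Tes and Fst do not overlap between groups, whereas Atf3, Sox11, Gal and Gap43 overlap.

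The promoters of some of these genes are shown because AP-1, which Jun and its partners form, and STAT factors are the regulators held to switch the injury programme on. The sequences are from RefSeq on build GRCm38.p6, from 250 bases before to 50 after the gene start, and differ in build from the count tables. They were found for 27 of the 36 genes, in 28 promoters. Sprr1a is shown as the injury gene with the most matches, Jun as the factor that rose, and Arid5a and Tes as genes that rose and held none of the motifs searched. Capitals mark matches on either strand to the AP-1 site TGANTCA or to TGACNTCA, a form of the cAMP response element (CRE) that contains the strict CRE TGACGTCA.
Sprr1a, chr3:92485832-92486131, minus strand: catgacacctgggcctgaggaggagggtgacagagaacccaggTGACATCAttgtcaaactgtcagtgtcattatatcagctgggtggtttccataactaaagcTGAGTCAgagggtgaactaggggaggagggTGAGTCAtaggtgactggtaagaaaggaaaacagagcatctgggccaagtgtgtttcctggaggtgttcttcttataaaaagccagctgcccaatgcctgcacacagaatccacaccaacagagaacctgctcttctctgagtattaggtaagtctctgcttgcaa
Jun, chr4:95052173-95052472, minus strand: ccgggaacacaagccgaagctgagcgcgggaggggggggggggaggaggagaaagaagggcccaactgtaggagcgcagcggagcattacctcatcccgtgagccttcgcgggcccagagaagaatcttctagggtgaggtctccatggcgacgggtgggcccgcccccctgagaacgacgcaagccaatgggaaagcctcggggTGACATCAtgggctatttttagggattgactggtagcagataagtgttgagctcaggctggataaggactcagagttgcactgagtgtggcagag
Arid5a, chr1:36307483-36307782, plus strand: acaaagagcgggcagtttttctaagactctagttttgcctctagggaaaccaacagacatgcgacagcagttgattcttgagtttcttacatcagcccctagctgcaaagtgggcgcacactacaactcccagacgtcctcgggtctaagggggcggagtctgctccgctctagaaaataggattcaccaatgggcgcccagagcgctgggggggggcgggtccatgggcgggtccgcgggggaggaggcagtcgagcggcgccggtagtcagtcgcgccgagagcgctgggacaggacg
Tes, chr6:17064899-17065198, plus strand: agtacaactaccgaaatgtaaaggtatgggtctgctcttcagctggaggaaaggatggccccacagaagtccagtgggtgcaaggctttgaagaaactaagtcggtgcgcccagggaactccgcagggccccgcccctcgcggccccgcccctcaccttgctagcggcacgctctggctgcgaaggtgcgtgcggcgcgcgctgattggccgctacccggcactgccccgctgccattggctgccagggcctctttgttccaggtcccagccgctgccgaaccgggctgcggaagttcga

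The Sprr1a promoter held 2 AP-1 matches, 146 and 116 bases before the start, and a TGACNTCA match 207 bases before it. The Jun promoter held 1 TGACNTCA match, 45 bases before the start. Over the list, AP-1 matches were found in Il6, Plaur and Sprr1a, which is 3 of 27 genes, beside 7.81% of 32851 mouse promoters of the same length. TGACNTCA was found in 5 of 27 genes, Flrt3, Jun, Klf6, Sox11 and Sprr1a, beside 8.83% of promoters, and was searched after the values had been seen. The strict CRE was found in 0 of 27 genes, beside 1.79% of promoters, and the STAT motif TTCNNNGAA in Socs3 alone, beside 8.30%. Of the 5 genes that rose, a promoter was found for Arid5a, Tes and Jun but not for Gpr151 or Fst. Jun alone of those searched held a match, and only to TGACNTCA.

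Among the secreted peptides, cytokines and inhibitors, 5 of 8 genes could be tested and 1 rose. Fst, which encodes follistatin, a secreted protein that binds and blocks activins, had a lowest, median and highest of 3.99, 4.36 and 5.71 CPM in iKO libraries and 1.98, 2.78 and 3.58 CPM in controls. The groups did not overlap. Fst had a log2 fold change of 0.77 ± 0.16 (SE, edgeR's quasi-likelihood test, adjusted p = 0.0358), a fold of 1.71. Fst rested on 498 counts in iKO and 260 in controls, and it was called in 3 of the 12 fits that each left out 1 library, those without iKO 1, control 4 or control 6. Its log2 fold change was 0.68 to 0.85 over the 12.

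Gal, the neuropeptide galanin that injured neurons make in quantity, had 15.5, 18.4 and 21.9 CPM as lowest, median and highest in iKO libraries and 16.8, 21.5 and 29.5 CPM in controls. The iKO libraries lay at the lower end of the control range, and 1 of 6 lay above the control median (log2 fold change -0.27 ± 0.15, edgeR adjusted p = 0.617). Csf1, the colony-stimulating factor that injured sensory neurons send to spinal microglia, had 13.1, 14.1 and 18.8 CPM in iKO libraries and 15.1, 18.0 and 20.5 CPM in controls. Its log2 fold change was -0.29 ± 0.09 and was not called (edgeR, unadjusted p = 0.00624, adjusted p = 0.236). The highest iKO library of Csf1 was iKO 1, and without iKO 1 the value was -0.34 ± 0.08 and passed the threshold (edgeR, adjusted p = 0.0425).

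Ccl2, a monocyte attractant, averaged 3.29 ± 0.888 CPM in iKO and 3.33 ± 1.04 CPM in controls, and Timp1, a metalloproteinase inhibitor, 3.49 ± 1.05 CPM in iKO and 3.18 ± 0.685 CPM in controls. The remaining 3 secreted products stayed near the limit of detection. The neuropeptide Npy had 29 counts over the 6 iKO libraries and 20 over the 6 controls, with a lowest, median and highest of 0.0597, 0.172 and 0.944 CPM in iKO and 0.0659, 0.132 and 0.472 CPM in controls. The neuropeptide Vip had 14 counts in iKO and 6 in controls, and the cytokine Il6 had 18 in iKO and 17 in controls. A difference in these genes was not detectable at this depth (exact 2-sided permutation tests, p = 0.727, 0.615 and 0.911, adjusted over the 5 low genes 0.909, 0.909 and 0.911).

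Of the receptors and surface proteins, 6 of 7 could be tested, 1 rose, and all 6 estimates were positive. Gpr151, an orphan G protein-coupled receptor that dorsal root ganglion neurons are known to make after nerve injury, had a lowest, median and highest of 3.37, 4.01 and 5.05 CPM in iKO libraries and 1.598, 2.11 and 2.55 CPM in controls. The groups did not overlap. Its log2 fold change was 0.95 ± 0.15 (SE, edgeR's quasi-likelihood test, adjusted p = 0.00587), a fold of 1.93, the highest of the 31 genes. It rested on 436 counts in iKO and 197 in controls, and it was called in each of the 12 fits that left out 1 library.

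The other 5 tested receptors had log2 fold changes between 0.07 and 0.20, none called. Tnfrsf12a, the TWEAK receptor, averaged 5.85 ± 1.17 CPM in iKO and 5.01 ± 0.893 CPM in controls, with iKO 1 the highest of all 12 libraries at 8.07 CPM. Lifr, the receptor for leukaemia inhibitory factor, averaged 796 ± 87.9 CPM in iKO and 730 ± 49.8 CPM in controls. Itga7, a laminin-binding integrin of growing axons, averaged 180 ± 12.7 CPM in iKO and 171 ± 17.8 CPM in controls. Flrt3, a leucine-rich repeat membrane protein, and Plaur, the urokinase receptor, had log2 fold changes of 0.07 ± 0.10 each. Cckbr, the cholecystokinin B receptor, had only 15 counts in iKO and 25 in controls (exact permutation p = 0.134, adjusted p = 0.671).

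Of the growth-associated and cytoskeletal proteins, 4 of 5 could be tested and 1 rose. Tes, which encodes testin, a LIM-domain protein of focal adhesions and actin fibres, had a lowest, median and highest of 16.4, 17.8 and 19.0 CPM in iKO libraries and 10.9, 12.6 and 14.5 CPM in controls. The groups did not overlap. A log2 fold change of 0.50 ± 0.08 was fitted (SE, edgeR's quasi-likelihood test, adjusted p = 0.00442), and the call was kept in each of the 12 fits that left out 1 library.

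Gap43, the growth-cone protein used as the standard marker of regrowth, had 198, 208 and 217 CPM as lowest, median and highest in iKO libraries and 193, 220 and 243 CPM in controls. No iKO library lay above the control median of Gap43, and the log2 fold change was -0.07 ± 0.06 (edgeR, adjusted p = 0.748), with a 95% interval of 0.871-fold to 1.04-fold. Sprr1a, a small proline-rich protein nearly absent from intact neurons, had 40 counts over the 6 iKO libraries and 27 over the 6 controls. Its lowest, median and highest were 0.149, 0.337 and 0.881 CPM in iKO and 0, 0.154 and 0.827 CPM in controls, and the ranges overlapped (exact 2-sided permutation p = 0.613, adjusted p = 0.909).

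Stmn4, a microtubule-destabilising stathmin, averaged 16.2 ± 1.26 CPM in iKO and 14.5 ± 1.63 CPM in controls, with a log2 fold change of 0.17 ± 0.08 that was not called. Tubb6, a beta-tubulin, averaged 22.8 ± 1.90 CPM in iKO and 20.2 ± 3.10 CPM in controls, and was likewise not called in the comparison with all controls.

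None of the 6 enzymes, stress proteins and signal regulators was called. Ecel1, an endopeptidase known as damage-induced neuronal endopeptidase, had 0.160, 0.272 and 0.629 CPM as lowest, median and highest in iKO libraries and 0.395, 0.870 and 2.07 CPM in controls. All iKO libraries lay below the control median, and the ranges overlapped. Its log2 fold change of -1.51 ± 0.36 was the largest in size among the 31 genes and was just short of the threshold (edgeR, adjusted p = 0.0671) on 33 counts in iKO and 98 in controls. It passed the threshold with DESeq2, without the filter and in 4 further alternatives, 6 of the 23 in which it could be tested, with log2 fold changes of -1.73 to -0.97 over the 23.

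Socs3, the feedback inhibitor of gp130 and Stat3 signalling, had 9.47, 10.8 and 15.6 CPM as lowest, median and highest in iKO libraries and 7.71, 9.38 and 10.6 CPM in controls. All 6 iKO libraries lay above the control median, the highest being iKO 1, but the log2 fold change of 0.31 ± 0.13 was not called (edgeR, unadjusted p = 0.0308, adjusted p = 0.459). Gadd45a, a DNA-damage and stress response protein, had 11.1, 12.4 and 14.6 CPM in iKO libraries and 10.2, 13.1 and 17.1 CPM in controls, with a log2 fold change of -0.12 ± 0.12. Its ranges overlapped, and 19.1% of its exon bases are shared with E230016M11Rik on the other strand, so reads of the 2 genes cannot be told apart there.

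Hspb1, the small heat shock protein that protects injured neurons, averaged 34.7 ± 3.48 CPM in iKO and 32.4 ± 3.92 CPM in controls. Gch1, the rate-limiting enzyme of tetrahydrobiopterin synthesis, averaged 4.83 ± 0.786 CPM in iKO and 4.92 ± 0.782 CPM in controls. Anxa1, a glucocorticoid-responsive annexin found in neurons and in immune cells, had 54.6 CPM in iKO 1 and 13.2 to 22.7 CPM in the other iKO libraries, against 19.98 to 37.3 CPM in controls. The log2 fold change of Anxa1 was -0.23 ± 0.34 with iKO 1 and -0.53 ± 0.20 without it, neither called by edgeR (adjusted p = 0.870 and 0.232).

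**Figure D3:**
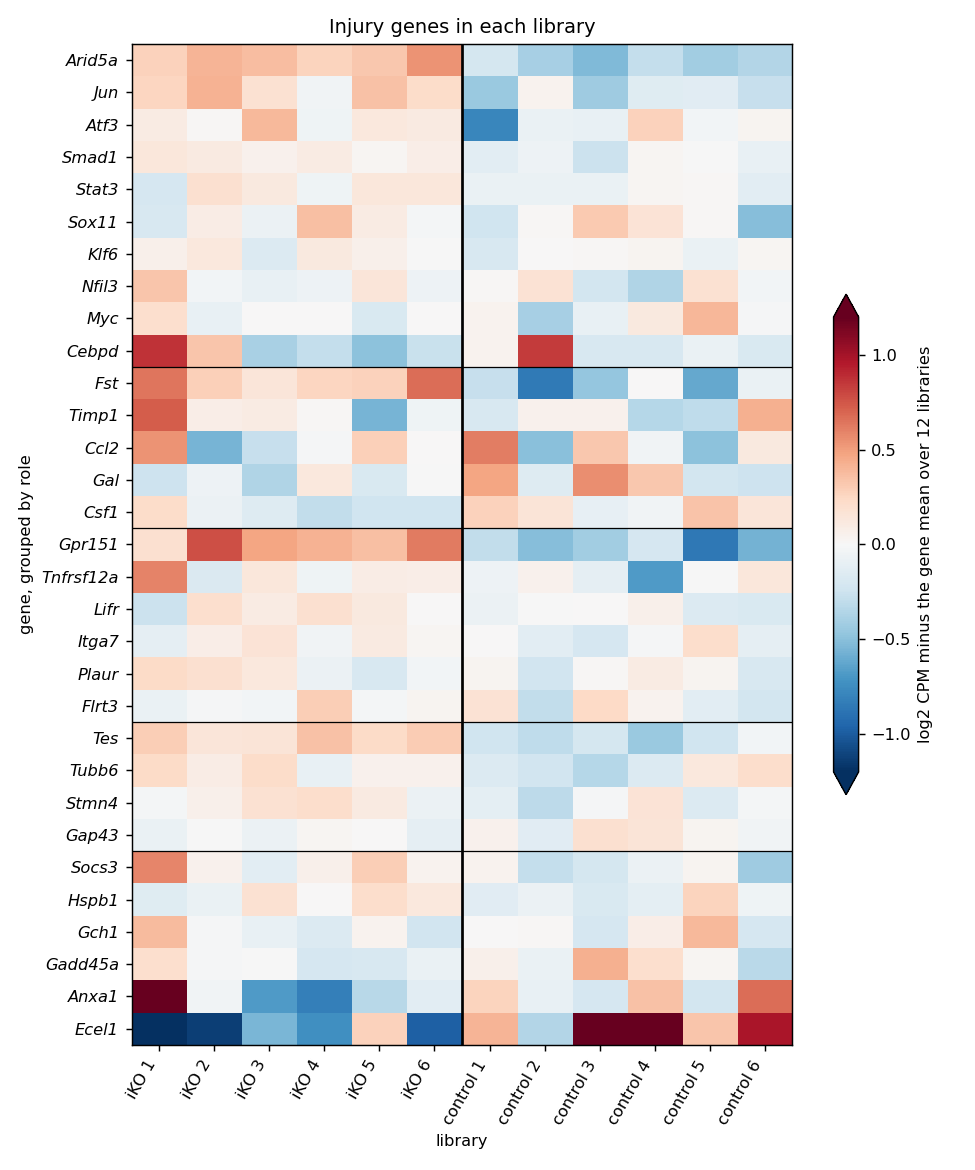
Log2 CPM of each tested injury gene (rows, grouped by role) minus its mean over the 12 libraries (columns, iKO left of controls). Red is above and blue below the mean, and the scale saturates beyond 1.2 in either direction. The rows of Arid5a, Fst, Gpr151 and Tes change colour at the group boundary, and library iKO 1 has deep red in Cebpd, Anxa1, Timp1 and Fst.

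Library iKO 1, which had high macrophage, fibroblast and endothelial markers and low sensory neuron markers, was the highest of the 6 iKO libraries in 14 of the 31 genes and the lowest in 8. Its mean centred log2 CPM over the 31 genes was 0.17, beside -0.01 to 0.04 in the other 5 iKO libraries and -0.14 to 0.01 in controls. For the genes that rose, iKO 1 was within the range of the other iKO libraries for Arid5a, Tes, Jun and Fst and the lowest for Gpr151. Leaving iKO 1 out gave log2 fold changes of 0.75 for Arid5a, 1.00 for Gpr151, 0.49 for Tes, 0.45 for Jun and 0.71 for Fst, all still called. In all, 7 of 31 genes were called in that fit, with Csf1 and Ecel1, both lower in iKO, as the added ones. Calls over all genes went from 155 to 364 in the same fit. The myelinating Schwann cell markers were positive in 8 of 8 genes, with a median log2 fold change of 0.25 and 0 called by edgeR (2 at an unadjusted p under 0.05). Their summed level was 4150 to 5984 CPM in iKO libraries and 3568 to 4577 CPM in controls, and their part in the differences above was not tested.

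The controls were of 2 kinds, and each was set against the iKO libraries in a fit with 3 groups. These comparisons share the 6 iKO libraries. Against the 4 tamoxifen controls, which share the agent but not the genotype, 5 of the 31 genes rose and 1 fell, beside 1.35% of all genes tested called in either direction. The log2 fold changes were 0.72 for Arid5a, 0.85 for Gpr151, 0.54 for Tes, 0.47 for Jun and 0.32 for Tubb6, and -1.74 for Ecel1 (edgeR's quasi-likelihood test, adjusted p = 0.000725, 0.0167, 0.00458, 0.0476, 0.0406 and 0.0236 in that order). Fst had 0.77 in that comparison and missed the threshold (adjusted p = 0.0637). Arid5a and Tes alone were called with a term for the number set and on leaving out iKO 6, control 1 or control 3, Tubb6 and Ecel1 were lost without the sex term, and DESeq2 did not call Ecel1 and called Gal lower and Fst higher.

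Against the 2 corn-oil controls, which share the genotype but not the agent, Arid5a alone rose, beside 0.146% of all genes tested. Its log2 fold change was 0.74 ± 0.11 (edgeR's quasi-likelihood test, adjusted p = 0.0225). This call was lost with a term for the number set and on leaving out iKO 4, 5 or 6 or control 5 or 6. Without the filter, Gpr151 and Jun were called higher as well, and Anxa1 was called lower, beside 349 of all genes called. In the main fit, Gpr151 had 1.21 ± 0.23, Fst 0.78 ± 0.26, Tes 0.40 ± 0.11 and Jun 0.39 ± 0.14, not called. With 2 libraries in the corn-oil group the intervals are wide, and a missed threshold there does not show that these genes were at control level.

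Over the 31 genes, 13 had positive and 4 had negative estimates against both kinds of control, and 14 had opposite signs. Tubb6 was one of those 14: iKO libraries held 20.04 to 25.1 CPM, all above the tamoxifen controls at 16.8 to 19.1 CPM. The corn-oil controls of Tubb6, at 23.3 and 24.7 CPM, lay inside the iKO range. Gal was another of the 14, with 15.5 to 21.9 CPM in iKO libraries, 17.9 to 29.5 CPM in tamoxifen controls and 16.8 to 17.1 CPM in corn-oil controls. Between corn-oil and tamoxifen controls 0 of the 31 genes and 0% of all genes tested were called by edgeR, and DESeq2 and limma-voom also called 0 of the 31. At an unadjusted p under 0.05 in edgeR, 2 of the 31 were higher and 3 lower in corn-oil controls. Over all 16384 genes tested, 990 were higher and 910 lower at that threshold. The smallest unadjusted p-values were those of Tubb6 at 0.46 ± 0.10 and Gal at -0.67 ± 0.17 on the log2 scale. Genotype, agent and the set of library numbers differ together between the control kinds, and among the controls they cannot be told apart. The corn-oil controls were also all from males, whereas the tamoxifen controls were from both sexes, and sex was a term in the fit.

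**Figure D4:**
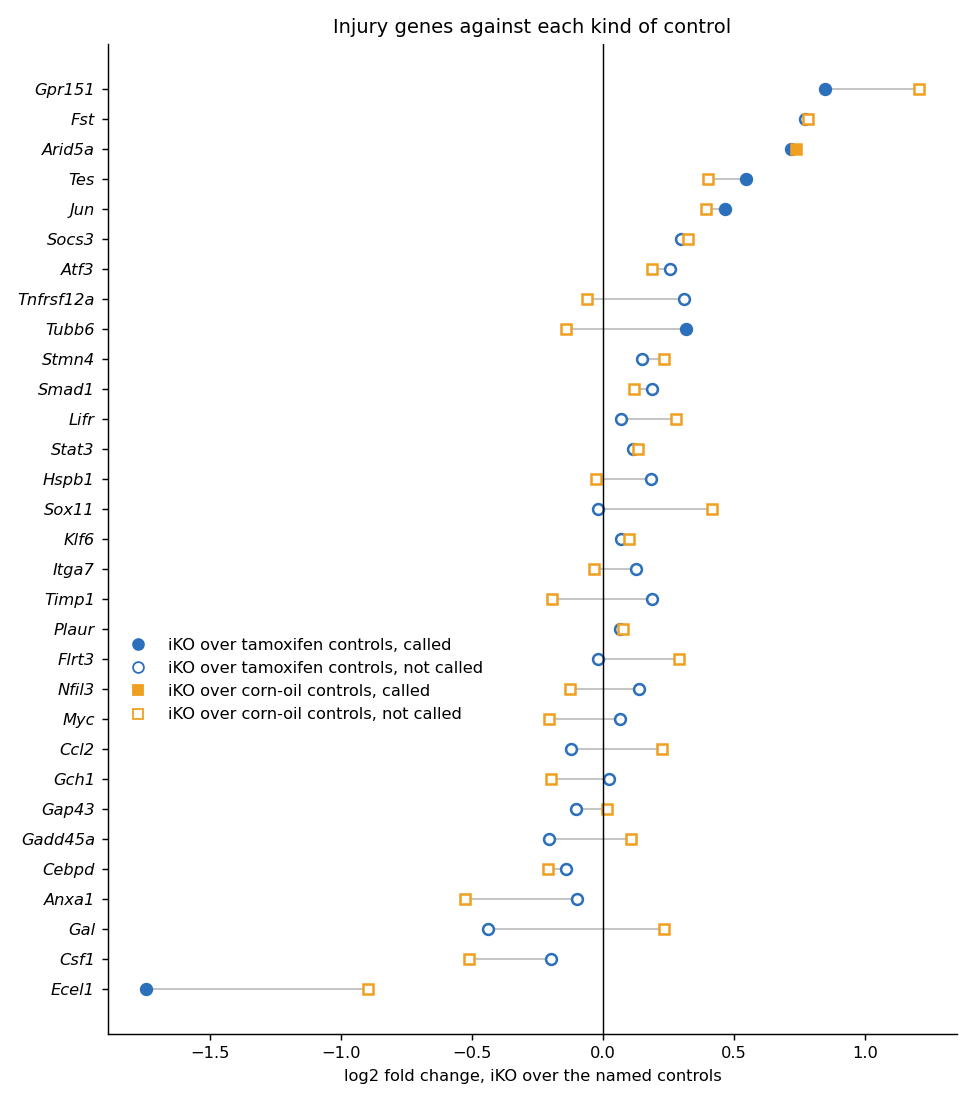
Log2 fold change of each tested injury gene in iKO over the 4 tamoxifen controls (circles) and over the 2 corn-oil controls (squares). Filled symbols have an adjusted p under 0.05. Arid5a, Fst and Jun lie close together in both comparisons, while Gal, Tubb6, Sox11 and Timp1 lie on opposite sides of 0.

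The difference between iKO and control was also compared between females (3 iKO, 2 controls) and males (3 iKO, 4 controls). In the test of the difference itself, the interaction of sex and group, 0 of the 31 genes and 0% of all genes tested were called by edgeR, and 0 of the 31 had an unadjusted p under 0.05. DESeq2 and limma-voom also called 0 of the 31. Arid5a averaged 24.0 CPM in iKO and 15.3 CPM in control females, and 24.5 CPM in iKO and 14.3 CPM in control males. Atf3 averaged 8.58 CPM in iKO and 5.79 CPM in control females, and 7.94 CPM in iKO and 7.89 CPM in control males (interaction, edgeR, unadjusted p = 0.0527).

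Neighbouring genes of the injury pathways were compared in the same fit. Of 13 other genes known to be raised by nerve injury, 10 were tested and 0 called by edgeR, with a median log2 fold change of 0.02. The smallest p among them was that of Plau, the urokinase gene, at 8.48 ± 1.67 CPM in iKO and 11.8 ± 1.603 CPM in controls (log2 fold change -0.51 ± 0.13, edgeR adjusted p = 0.0973). Of 15 genes known to be lowered by nerve injury, all 15 were tested, 1 rose, 0 fell, and the median was -0.06. At an unadjusted p under 0.05 in edgeR, 3 of the 15 were lower and 1 higher, beside 4.18% and 5.33% of all genes tested. The estimates were negative in 9 of the 15 and positive in 6. The one that rose was Sst, the neuropeptide somatostatin, with 11.5 ± 2.74 CPM in iKO and 6.99 ± 1.82 CPM in controls, a log2 fold change of 0.62 ± 0.11 (edgeR's quasi-likelihood test, adjusted p = 0.011). The Sst libraries overlapped, from 7.93 to 15.3 CPM in iKO and from 5.45 to 9.62 CPM in controls, and the call was lost in the fit without a term for sex.

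In the DLK, JNK and AP-1 pathway, 0 of 19 tested genes were called, and the smallest p was that of Jund, another AP-1 subunit (log2 fold change 0.32 ± 0.13, edgeR adjusted p = 0.436). In the gp130 cytokine and JAK pathway, 0 of 12 were called, and Pias3, an inhibitor of activated Stat3, was nearest to the threshold with 27.1 ± 2.68 CPM in iKO and 21.1 ± 2.61 CPM in controls (log2 fold change 0.33 ± 0.07, edgeR adjusted p = 0.0532). In the activin and BMP pathway, to which follistatin and Smad1 belong, 0 of 17 were called, with Id2, a BMP target, at 0.33 ± 0.10 (edgeR adjusted p = 0.199). In the growth cone cytoskeleton, 0 of 12 were called, with Tubb3, neuronal beta-tubulin, at 0.18 ± 0.10 (adjusted p = 0.598). In the tetrahydrobiopterin pathway around Gch1, 0 of 5 were called, with Spr, sepiapterin reductase, at 0.17 ± 0.08 (adjusted p = 0.529).

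Median log2 fold changes were 0.02 in the DLK, JNK and AP-1 pathway, 0.05 in the gp130 pathway, 0.00 in the activin and BMP pathway, 0.04 in the growth cone list and -0.01 in the tetrahydrobiopterin pathway. At an unadjusted p under 0.05 in edgeR there were 2, 1, 2, 0 and 0 genes in these 5 lists in the same order. The 2 in the first list were 1 higher and 1 lower, and those in the next 2 lists were higher. Among the other injury-raised genes, 1 was higher and 2 were lower. Over all genes tested, 5.33% were higher and 4.18% lower at that threshold. Among the pathway genes that DESeq2 called, Sst and Pias3 were higher and Plau and Serpina3n lower in iKO, and limma-voom called Sst and Pias3.

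The 5 genes that rose kept a positive log2 fold change in all 24 alternatives tried. Arid5a was called in 23 of the 24, Gpr151 and Tes in 21, Jun in 15 and Fst in 10. The library numbers fall into sets, 1 to 4 and 5 to 6, and in the second set all controls are corn-oil ones. Within libraries 1 to 4 the log2 fold changes were 0.67 for Arid5a, 0.86 for Gpr151, 0.56 for Tes, 0.40 for Jun and 0.77 for Fst, of which Arid5a alone was called. Within libraries 5 and 6 they were 0.82, 1.21, 0.40, 0.50 and 0.80 for the same genes in that order, of which Arid5a and Jun were called.

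**Figure D5:**
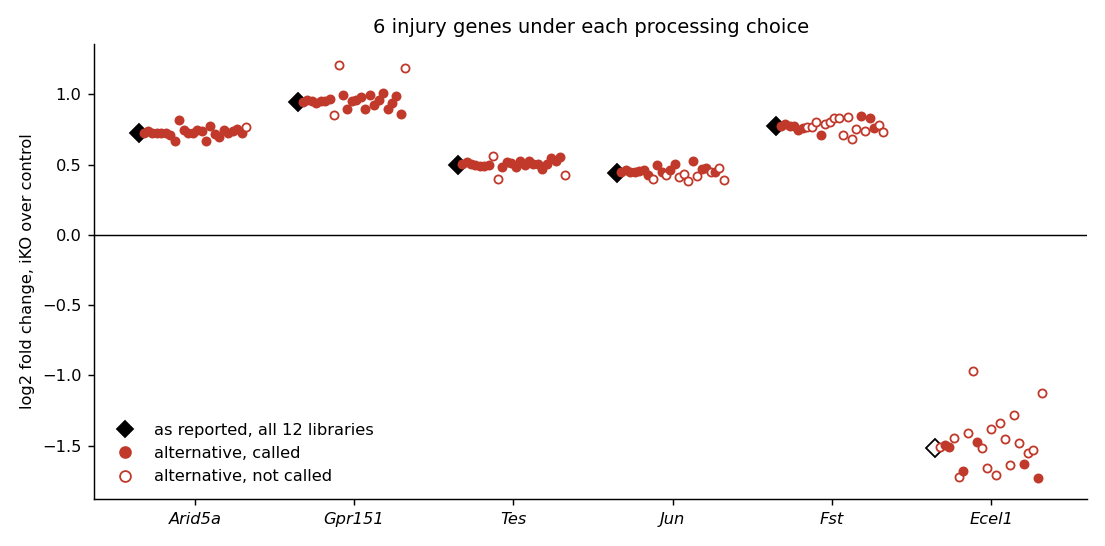
Log2 fold change, iKO over control, of the 5 injury genes that rose and of Ecel1 under each alternative in processing or choice of libraries. Diamonds are the values over all 12 libraries, and filled symbols have an adjusted p under 0.05. The first 5 genes stay above 0 in all 24 alternatives and Ecel1 stays below 0 in the 23 in which it was tested.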

How the data were processed

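Polyadenylated RNA of adult mouse dorsal root ganglia was sequenced from non-stranded TruSeq libraries, per the labels' protocols. The authors deposited 1 table of read counts per gene and library, made with bcl2fastq 2.20.0.422, STAR 2.7.8a, featureCounts 2.0.1 and build GRCm39, per the submitters' processing notes. The counts are whole numbers that are not normalised. Of 55416 identifiers, 93.99% were given a symbol, and these hold 99.67% of the counts. The counts were tested with edgeR 4.0.16 in R 4.3.3: TMM scaling, filterByExpr by group (16384 genes kept), the robust quasi-likelihood fit with sex and group as terms (9 residual degrees of freedom, biological coefficient of variation 12.8%), and Benjamini-Hochberg adjustment over all genes with a threshold of 0.05. CPM values are TMM-scaled, and their SD is over libraries. DESeq2 1.42.0 and limma 3.58.1 (voom) were alternatives. On simulated counts the main fit found 87 of 100 genes changed by 1.5-fold and 100 of 100 changed by 2-fold. The simulation gave all genes the same spread, changed only genes above a set mean count and held no outlying library like iKO 1. These shares therefore do not say how often a change in a given member would be found.

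The members, roles and pathway lists were chosen with earlier results of these data known. All 36 members were named, with the spread over libraries for those called, for those with an unadjusted p under 0.05 and for 9 classic injury genes. From each pathway list the called genes, or the gene with the smallest p, were named, and Prdm12 and Serpina3n beside them, with Serpina3n chosen after its values had been seen. Some called genes of the pathway and marker lists are not reported here. Replicate numbers were not taken as pairs, and what they stand for is not stated. Motif letters were matched on both strands of RefSeq promoters.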

Additional observations from a re-analysis of the deposited data

Results flagged for a closer look

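In 62 groups of 6 libraries tested (31 genes in iKO and in controls), 7 had 1 library far from the others by Dixon's criterion, which chance alone gives in about 1 of 20 groups. Library iKO 1 was the highest iKO library for Anxa1, at 54.6 CPM with the next at 22.7 CPM, and for Tnfrsf12a, at 8.07 CPM with the next at 5.88 CPM. Library iKO 3 was the highest for Atf3, at 9.97 CPM with the next at 8.31 CPM, and iKO 4 for Flrt3, at 35.8 CPM with the next at 29.8 CPM. Among controls, control 2 was the highest for Cebpd, at 16.8 CPM with the next at 9.69 CPM, and control 5, given corn oil, was the highest for Hspb1, at 40.2 CPM with the next at 32.1 CPM. Control 4 was the lowest for Tnfrsf12a, at 3.31 CPM with the next at 4.96 CPM. None of these genes was called between iKO and control by edgeR.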

How the results depend on the processing

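Over 24 alternatives no result turned its direction among those called. The 5 members called became 6 without the low-count filter, with DESeq2 and with the replicate block (Ecel1 added), 4 with a term for the number set, 1 within libraries 1 to 4, 2 within 5 and 6, and 0 with corn-oil controls only. Leaving out 1 library gave 3 to 7, with 3 on leaving out iKO 2, 5 or 6 or control 1 or 3. Of the 26 members not called, 13 changed sign in some alternative. Same-numbered iKO and control libraries deviated together with r of -0.154 to 0.217, and the numbers were not taken as pairs. These values do not show that no pairing existed.

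The 1 pathway gene called became 5 without the filter and with DESeq2, 2 with limma-voom, 0 without sex, 3 with the replicate block, 2 with the set term, 0 within libraries 1 to 4, 3 without both iKO 1 and control 6, 2 with tamoxifen and 0 with corn-oil controls only, and 1 to 5 on leaving out 1 library, with 5 without iKO 1. Prdm12 missed the threshold within libraries 5 and 6 (log2 fold change -2.13, edgeR adjusted p = 0.622) and with corn-oil controls only (-2.13, adjusted p = 0.121), both with 2 controls.

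Against tamoxifen controls, 6 members called became 1 with the replicate block (Arid5a), 2 with the set term, 10 without both iKO 1 and control 6, and 2 to 8 without 1 library, with 2 on leaving out iKO 6 or control 1 or 3. Against corn-oil controls, 1 (Arid5a) became 4 without the filter, 2 with DESeq2, without sex and without both iKO 1 and control 6, 0 with the replicate block and with the set term, and 0 to 4 without 1 library, with 4 without iKO 1 and 0 without iKO 4, 5 or 6 or control 5 or 6. Without the filter, 1 member was called between control kinds (Gal), beside 443 of all genes. For the interaction with sex, 1 member (Anxa1) was called without the filter, beside 270 of all genes. Calls over all genes numbered 155 against all controls, with 253 without the filter, 294 with DESeq2 and 364 without iKO 1. Against tamoxifen controls they numbered 222, with 927 without the filter, and against corn-oil controls 24, with 349 without the filter. Totals over all genes are not given here for the remaining alternatives, so member counts in those stand without a background. The causes were not tested. Counts limit Npy, Vip, Il6, Cckbr, Sprr1a and Ecel1.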
